A study of Mus musculus with 6 samples.

Results

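P2rx1 and Camkk1 are adjacent protein-coding genes on mouse chromosome 11, and both were higher after a Gfi1b fusion protein had been switched on in cultured B cell precursors. They were chosen as the rows of the authors' deposited table of changed probe sets that carry these 2 gene names. That gave 1 probe set for each gene, so 2 of the 225 different genes named in the table and 2 of the 35557 probe sets measured. The table's rows had been picked by the authors for their difference between the same arrays, with p-values of 0.0451 or less and folds of at least 1.503 in either direction. The rise of P2rx1 and Camkk1 is therefore what put them in the table, and it is described below without being used as a test.

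The cells were an Abelson pro-B cell line, a mouse B lineage precursor line transformed by Abelson murine leukaemia virus, infected with a retrovirus that encodes Gfi1b fused to the oestrogen receptor domain. Gfi1b is a repressor of transcription that acts in early blood cells. Tamoxifen activates proteins joined to this domain. All 6 arrays were from cells carrying the fusion. There were 3 arrays from untreated cultures and 3 from cultures given tamoxifen for 12 h. The submitters call them biological replicates. Cells treated with tamoxifen but lacking the fusion were not analysed here, so an effect of tamoxifen and one of the fusion cannot be told apart. Whether the cells were 1 clone is not stated.

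P2rx1 encodes a P2X receptor, a cation channel in the plasma membrane that opens when ATP binds outside the cell and lets calcium and sodium in. It is best known from platelets, smooth muscle and neutrophils, and its currents fade quickly while ATP stays bound. Camkk1 encodes a kinase that calmodulin activates when calcium in the cell rises. It phosphorylates and so activates the calmodulin-dependent kinases CaMKI and CaMKIV, and it is best known from the brain. One gene thus acts where calcium enters and the other acts downstream of calcium.

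The start regions of the 2 genes differ in composition, and they are shown because the genes are neighbours that were higher together. Both sequences are RefSeq's, in build GRCm38.p6, on the plus strand, each of 300 bases from 250 before the annotated start to 50 after it. Both genes matched 1 entry each. P2rx1 lies at chr11:72998895-72999194 and Camkk1 at chr11:73018738-73019037. The build behind the array is not given. Capitals mark matches to AATC, the core bound by the Gfi family, to AGATAA, which the GATA factors bind, and to CCAAT, a common promoter element, on either strand.
P2rx1: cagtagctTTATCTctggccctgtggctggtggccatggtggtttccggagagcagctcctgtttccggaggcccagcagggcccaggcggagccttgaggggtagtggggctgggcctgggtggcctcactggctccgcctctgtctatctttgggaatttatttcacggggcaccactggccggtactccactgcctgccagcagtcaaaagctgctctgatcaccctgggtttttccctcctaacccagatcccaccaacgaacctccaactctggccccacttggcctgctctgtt
Camkk1: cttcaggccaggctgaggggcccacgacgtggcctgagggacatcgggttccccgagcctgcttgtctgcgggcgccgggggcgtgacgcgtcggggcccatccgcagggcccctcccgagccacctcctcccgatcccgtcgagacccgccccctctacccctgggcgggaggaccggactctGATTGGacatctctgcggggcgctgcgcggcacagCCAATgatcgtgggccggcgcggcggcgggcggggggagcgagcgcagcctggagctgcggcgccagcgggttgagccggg

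The Camkk1 sequence is rich in CpG, with 36 CG pairs and a G and C content of 75.3%. It has more CG pairs than 93.8% of the 32851 promoters in the same RefSeq set. The P2rx1 sequence has 7 CG pairs, the median of that set, and a G and C content of 60.7%. The P2rx1 window holds no match to AATC, while the Camkk1 window holds 1, on the minus strand from 66 to 63 bases before the start, overlapping a CCAAT match from 65 to 61 bases before it. The other CCAAT match in Camkk1, on the plus strand, lies from 31 to 27 bases before the start. AATC on either strand occurs in 73.1% of all promoters of this length and CCAAT in 37.4%, so neither match sets Camkk1 apart. The P2rx1 window holds 1 AGATAA on the minus strand, from 242 to 237 bases before the start, a motif found in 11.2% of promoters. GGGCGG, a site of Sp1 factors, occurs 3 times in Camkk1, with no overlap with the marked motifs, is absent from the P2rx1 window, and occurs in 35.7% of promoters. TATAAA, the TATA box, is in neither window and is in 13.6% of promoters. The motifs were chosen after the sequences had been seen.

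The arrays did not separate by treatment alone. The first principal component of all probe sets accounted for 46.0% of the variance. On it, untreated replicates 1 and 3 scored 30.6 and 26.5, whereas their tamoxifen counterparts scored -26.6 and -23.4. The order was turned in replicate 2, where the untreated array scored -9.74 and the tamoxifen array 2.67. Values that turn on replicate 2 are therefore given with and without it. Medians of the arrays lay between 7.52 and 7.60 on the log2 scale. Of the 19 B lineage markers examined, 4 were named in the table. Of these 4 the receptor chain Cd79b rose, from 11.70 to 12.35, and the other 3 fell with tamoxifen. The kinase Blk went from 11.94 to 11.14, the recombinase gene Rag1 from 11.34 to 9.06 and Rag2 from 8.72 to 6.89 (log2 means), so that Rag2 ended below the median of every array. For comparison, the table held 0.706% of all probe sets, a share that counts probe sets and not genes. Limma called 0.433% of all probe sets higher and 0.456% lower, at an adjusted p under 0.05. Of the genes named in the table, 96 were higher and 129 lower. Markers that the table does not name were not analysed here.

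The P2rx1 probe set, number 10378240, read 6.88, 6.63 and 7.05 (log2 expression) in untreated replicates 1 to 3 and 7.97, 7.76 and 7.96 in tamoxifen replicates 1 to 3. The groups did not overlap, and the lowest tamoxifen value exceeded the highest untreated one by 0.71, which was 1.68 times the range of the untreated values. The mean went from 6.85 ± 0.21 to 7.90 ± 0.12 (SD, n = 3 each). That is a log2 difference of 1.05 ± 0.12 (limma SE), or 2.06-fold. In untreated cells P2rx1 read below the median of every array, above 31.1% to 38.6% of probe sets, and with tamoxifen it read above the median, above 53.7% to 56.9%. No measure of background was at hand, so the fold of this dim probe set is uncertain.

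The Camkk1 probe set, number 10378253, read 8.10, 8.14 and 7.77 (log2 expression) in untreated replicates 1 to 3 and 9.19, 9.15 and 9.11 in tamoxifen replicates 1 to 3. The groups again did not overlap. The gap between them was 0.98, or 2.62 times the untreated range. The mean went from 8.003 ± 0.21 to 9.15 ± 0.036 (SD, n = 3 each), a difference of 1.15 with a limma standard error of 0.11, or 2.22-fold. The 3 tamoxifen arrays lay within 0.072 of each other, while the untreated arrays spread over 0.37. In these bulk cultures, more cells with the transcript and more transcript per cell cannot be told apart.

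**Figure D1:**
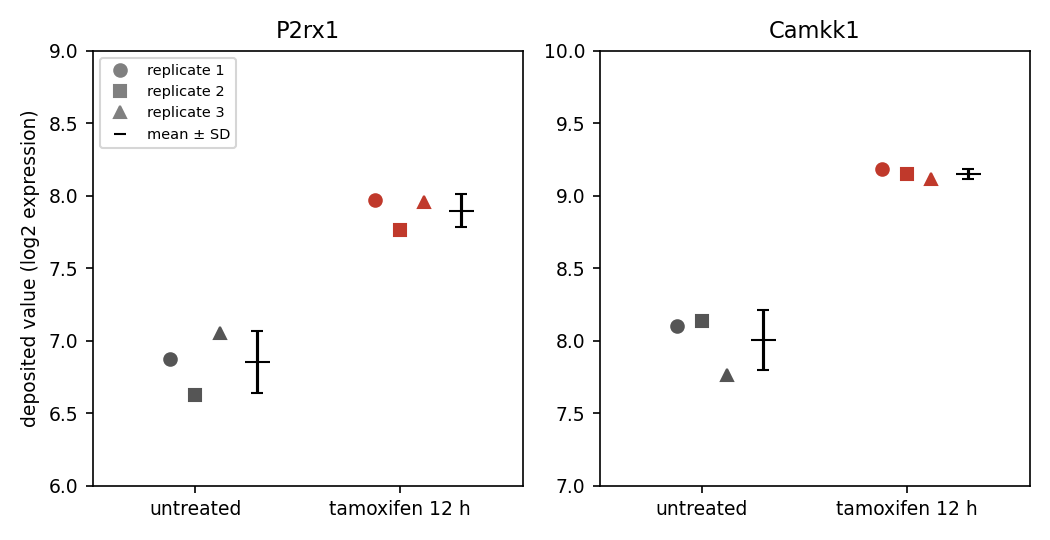
Deposited log2 expression values of P2rx1 and Camkk1 by array, with the mean and SD of each group of 3 beside the points; each panel spans 3 log2 units. For both genes the 3 tamoxifen arrays sit above the 3 untreated arrays, by a gap of 0.71 for P2rx1 and 0.98 for Camkk1.

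Complete separation with tamoxifen on top was found for 10.5% of all probe sets, and a rise of at least 2-fold for 0.138%. Of the 35557 probe sets, 38 had a larger rise than P2rx1 and 24 a larger one than Camkk1. Both genes were among the 154 probe sets called higher by limma at an adjusted p under 0.05, 0.433% of those tested, but they were chosen on this contrast and nothing is read from that call. That call also changed when 1 array was left out, as did the number of calls over all probe sets, which then lay between 9 and 278 higher. When arrays were left out in turn, giving 6 fits, P2rx1 stayed past the threshold in 1, the fit without untreated replicate 2, with limma adjusted p from 0.032 to 0.12 over the 6. Camkk1 stayed past it in 2, those without untreated replicate 2 and without untreated replicate 3, with limma adjusted p from 0.025 to 0.088. Without untreated replicate 1, tamoxifen replicate 1, tamoxifen replicate 2 or tamoxifen replicate 3, neither gene passed (limma adjusted p from 0.052 to 0.12). Leaving out untreated replicate 3 ended the call of P2rx1 alone (limma adjusted p = 0.058). The change of P2rx1 was then larger, at 1.15 (log2), and its unadjusted limma p was 9.7e-05, against 8.5e-05 with all arrays. The changes themselves moved less, between 0.93 and 1.15 for P2rx1 and between 1.03 and 1.22 for Camkk1 (log2). In the authors' deposited table P2rx1 stands at a fold of 2.07 with p = 0.00175 and Camkk1 at a fold of 2.22 with p = 0.000719, on its own test. They are 13th and 9th by fold among its 102 higher rows, which are 0.287% of all probe sets.

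**Figure D2:**
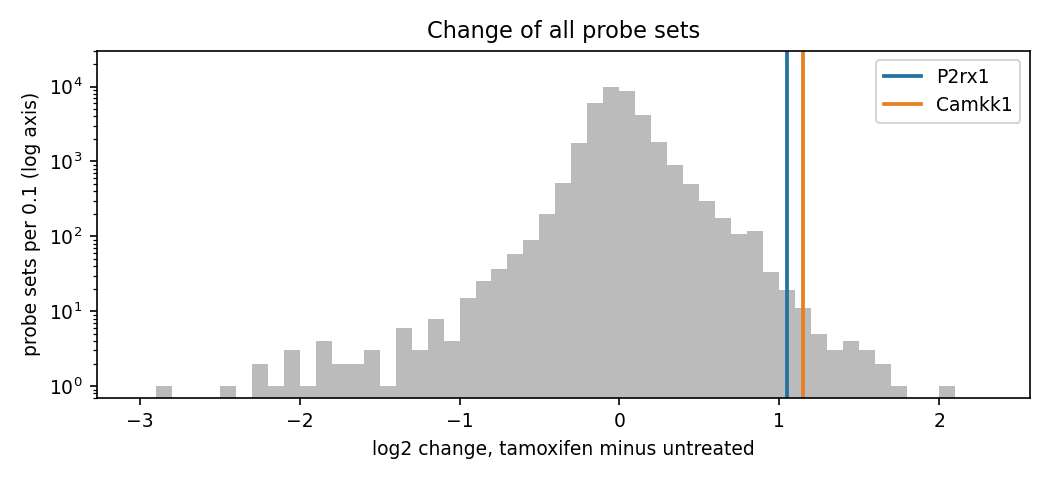
Number of probe sets, on a log axis, in each 0.1 step of log2 change (tamoxifen minus untreated) for all 35557 probe sets, with vertical lines at P2rx1 and Camkk1. Both lines stand in the upper tail, P2rx1 at 1.05 and Camkk1 at 1.15.

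The 2 rises were close in size. The change of P2rx1 minus that of Camkk1 was -0.10 ± 0.24 (SE, log2), taken from the difference between the 2 probe sets on each array. Between single arrays, the 9 differences of a tamoxifen from an untreated array ran from 0.71 to 1.34 for P2rx1 and from 0.98 to 1.42 for Camkk1, so the ranges overlapped over most of their length. Untreated replicate 3 decided the sign of the difference, which was 0.12 without that array and -0.28 without untreated replicate 2. Without both arrays of replicate 2 it was -0.22 with a standard error of 0.26. No p is given, because both rows were chosen on this contrast.

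Once the treatment difference was set aside, the deviations of the 2 genes from their group means had the same sign on 3 arrays and opposite signs on 3. On 1 of the 3 with the same sign, tamoxifen replicate 2, Camkk1 deviated by only -0.00025, so its sign there carries little. P2rx1 was lowest in untreated replicate 2, at 0.22 below its group mean (a deviation of -0.22), and highest in untreated replicate 3, at 0.20 above it. Camkk1 ran the other way, highest in untreated replicate 2, at 0.14 above its group mean, and lowest in untreated replicate 3, with a deviation of -0.24. In untreated replicate 1 both were above their means, by 0.025 and 0.10, and in tamoxifen replicate 1 both were at the top of their group, by 0.074 and 0.036. In the tamoxifen arrays P2rx1 was again lowest in replicate 2, with a deviation of -0.13, while Camkk1 stayed within 0.036 of its mean on every array. With 3 arrays in each of 2 separated groups no correlation across arrays is given.

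**Figure D3:**
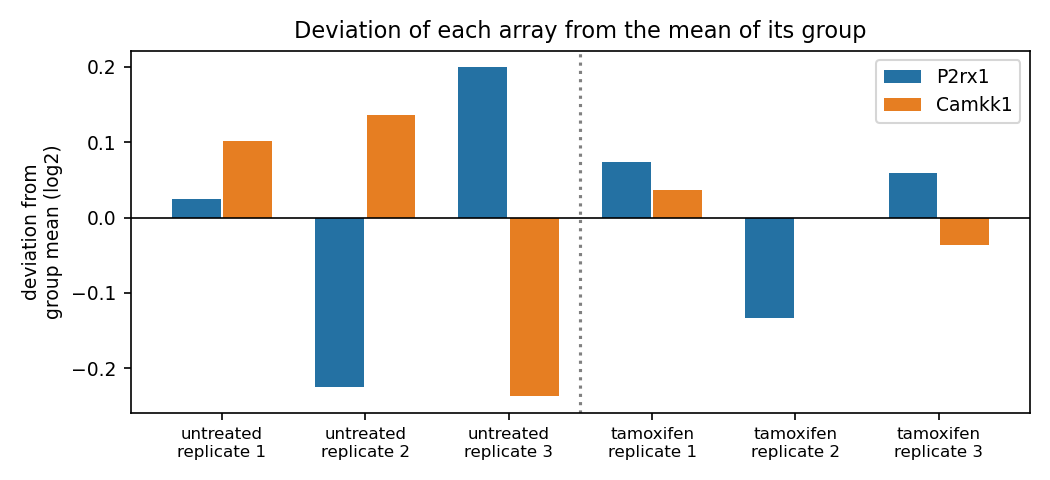
Deviation of each array from the mean of its own group (log2), for P2rx1 and Camkk1, untreated arrays left of the dotted line and tamoxifen arrays right of it. In untreated replicates 2 and 3 the bars of the 2 genes point in opposite directions, -0.22 against 0.14 and 0.20 against -0.24.

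Among the named genes that were higher, Camkk1 had the commoner order in the untreated arrays and P2rx1 the commoner low array in the tamoxifen arrays. Of 96 such genes in the table, Camkk1 and P2rx1 included, 60 were highest among the untreated arrays in replicate 2 and 52 were lowest in replicate 3, as Camkk1 was. P2rx1 was one of the 13 that were lowest in untreated replicate 2 and one of the 18 that were highest in untreated replicate 3. Among the tamoxifen arrays, 56 of the 96 were lowest in replicate 2, as P2rx1 was, while Camkk1 was one of the 33 that were lowest in replicate 3. The spread within groups was 0.17 for P2rx1 and 0.15 for Camkk1 (pooled SD, log2), against a median of 0.11 over all probe sets.

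Likeness between genes was measured as the root mean square difference over the 6 arrays between profiles that had each been centred on their own mean, so a smaller value means a closer pattern. Between P2rx1 and Camkk1 it was 0.25 log2 units. Of the other 35556 probe sets, 59 lay closer to P2rx1 than Camkk1 did, and 63 lay closer to Camkk1 than P2rx1 did. Both genes were chosen for their rise, which is part of these profiles, so the ranks carry no test. Over deviations from the group means, which leave the rise out, the root mean square difference was 0.24 log2 units. Within the table, whose genes were all chosen for a change, 43 of the other 224 named genes lay closer to P2rx1 than Camkk1 did, and 43 lay closer to Camkk1 than P2rx1 did. Among the 48 other probe sets that were at least 2-fold higher, Camkk1 was 13th closest to P2rx1, and P2rx1 was 17th closest to Camkk1. Leaving out untreated replicate 3 brought the distance between the centred profiles down to 0.13, and without both arrays of replicate 2 it was 0.21.

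The named genes closest to Camkk1 were closer to it than any named gene was to P2rx1. Tmem86a, an enzyme that breaks down lysoplasmalogens, lay 0.045 from Camkk1 over the 6 arrays, with a log2 change of 1.10. Cd300lf, an inhibitory receptor best known from myeloid cells, lay at 0.068, and Fgd2, an exchange factor that activates the GTPase Cdc42, also lay at 0.068. Cish, an inhibitor of cytokine signalling, lay at 0.074. Gna15, a G protein subunit that couples receptors to phospholipase C and so to the release of stored calcium, lay at 0.091 with a log2 change of 1.04 ± 0.096 (SE). The changes of these 5 genes were between 1.04 and 1.10. All 5 were also lowest in untreated replicate 3, from -0.15 to -0.25 relative to their group means, but they were picked for their likeness to Camkk1.

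The named gene closest to P2rx1 was Rapgefl1, a member of the family of exchange factors for Rap GTPases, at a distance of 0.12 over the 6 arrays. It went from 7.28 to 8.24 (log2 means), with a deviation of -0.20 in untreated replicate 2 and of -0.31 in tamoxifen replicate 2, the arrays in which P2rx1 was also low. Its change did not pass over all probe sets (limma adjusted p = 0.058). Adssl1, an enzyme of adenine nucleotide synthesis best known from muscle, lay at 0.14. The chemokine receptor Cxcr5 lay at 0.14, Prdm1, the repressor Blimp-1 of plasma cells, at 0.15, and Csprs at 0.16. Their log2 changes were between 0.85 and 1.02. All 10 of these neighbours by pattern come from the authors' deposited table and share the treatment difference that put them there.

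On the chromosome, the RefSeq gene order places no other protein-coding gene between P2rx1 and Camkk1, and the annotated spans of the 2 genes do not overlap. A long noncoding gene, 4732414G09Rik, starts between them and overlaps the span of Camkk1. Which transcript the Camkk1 probes read in that overlap cannot be told from the files used here. None of the 3 protein-coding genes on either side was named in the table. These are Cyb5d2, Zzef1 and Atp2a3 on the P2rx1 side, the last of which encodes the calcium pump SERCA3, and Ncbp3, Itgae and Haspin on the Camkk1 side. Their levels were not analysed here, so whether they were higher too is not known.

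In the order of probe set numbers P2rx1 and Camkk1 follow each other directly. Theirs was the 1 pair of consecutive probe sets, of 35556 such pairs, in which both were at least 2-fold higher with tamoxifen. Of all probe sets, 0.138% were that much higher. Both genes were chosen for their rise on these arrays, so the count carries no test. The probe set numbered just below P2rx1, 10378216, has no gene name here. It read 11.41, 11.46 and 11.36 (log2 expression) in untreated replicates 1 to 3 and 11.99, 11.92 and 12.06 in tamoxifen replicates 1 to 3. These groups did not overlap either, and the change was 0.58 ± 0.065 (SE, log2). The other 11 probe sets from 6 below P2rx1 to 7 above it had changes between -0.078 and 0.24, and in none of them were the groups apart. All tamoxifen arrays stood above all untreated ones in 10.5% of all probe sets. That share covers rises only, while the count of none among 11 covers both directions. The share for both directions is not given here, so nothing is read from that count. What the numbering follows is not given, and this window was chosen after the values had been seen.

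**Figure D4:**
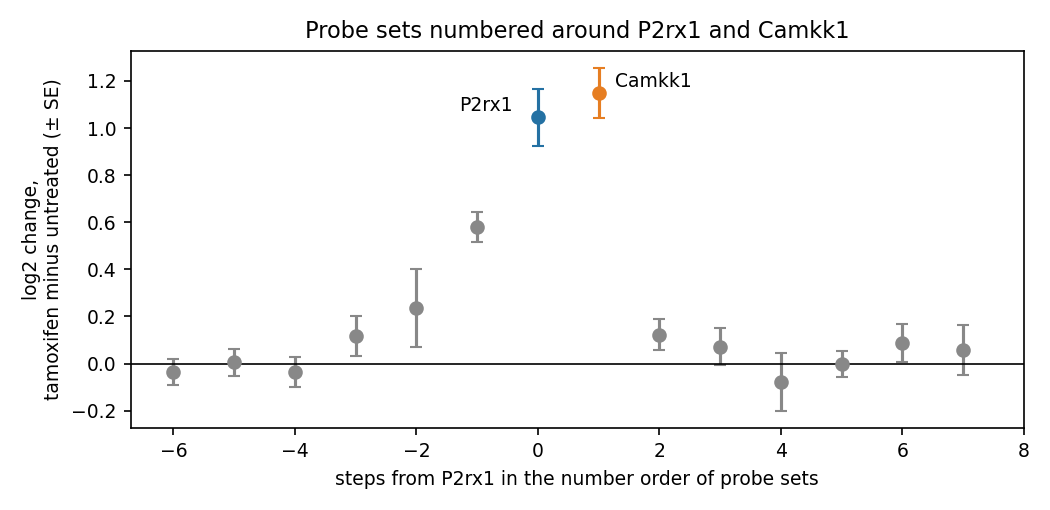
Log2 change (tamoxifen minus untreated, points) with its limma standard error (bars) for 14 probe sets in the order of their numbers, P2rx1 at 0 and Camkk1 at 1 on the horizontal axis. P2rx1 at 1.05, Camkk1 at 1.15 and the unnamed probe set just below P2rx1 at 0.58 stand above the other 11, which lie between -0.078 and 0.24.

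Other pairs of neighbouring genes were also present in the table. Of its named genes, 209 could be placed among the protein-coding genes of the RefSeq order, and they formed 9 pairs of direct neighbours. In 8 of the 9 both genes had the same sign, 3 pairs higher and 5 lower. Among all genes named in the table, 96 were higher and 129 lower. The higher pairs were P2rx1 with Camkk1, the lysozymes Lyz2 with Lyz1 (log2 changes 1.26 and 0.64), and the melanocortin receptor Mc1r with the tubulin Tubb3 (1.03 and 0.83, the latter with a limma adjusted p of 0.084). The lower ones were Rag2 with Rag1, the G protein regulators Rgs8 with Rgs16, Jun with the carbohydrate kinase Fggy, and 2 pairs formed by P2ry10, P2ry10b and Gpr174. Of these, Jun and P2ry10b did not pass (limma adjusted p = 0.12 for both). The split pair was the cholesterol exporter Abca1 at -0.80, which did not pass (limma adjusted p = 0.0997), and the choline transporter Slc44a1 at 0.72. The distance between profiles was 0.25 for P2rx1 with Camkk1, the same as the 0.25 of Rag2 with Rag1. It was smaller for Rgs8 with Rgs16, at 0.11, for Mc1r with Tubb3, at 0.12, and for Jun with Fggy, at 0.13. The lysozymes are similar in sequence, so their probe sets may read each other's transcripts. Since the table holds genes picked for their change, these counts carry no test.

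Other genes of nucleotide and calcium signalling were looked up in the table. Of 117 further genes in 5 lists it named 3, or 2.56%, where the table holds 0.706% of all probe sets. The first share counts genes and the second probe sets, among them 6667 low-numbered ones of which the table holds none. The 2 shares are therefore not a like measure, and no excess is read from them. All 3 were on the list of purinergic receptors, were of the G protein-coupled kind and had a lower mean after tamoxifen. P2ry13, a receptor for ADP, went from 7.79 ± 0.15 to 6.86 ± 0.15 (log2, SD, n = 3 each) and fell by 0.92 ± 0.11 (SE; limma adjusted p = 0.024). P2ry10, a receptor for lysophosphatidylserine in spite of its name, fell by 1.74 ± 0.071 (SE, log2; limma adjusted p = 0.00085), and its neighbour P2ry10b had a log2 change of -0.83 that did not pass (limma adjusted p = 0.12). P2rx1 was thus the 1 gene of the 20 on that list that was both named in the table and higher. Beside it, 2 fell and 1 did not pass. Over all probe sets, 0.456% were called lower. The median change of those 4 was -0.88, beside -0.63 over all 225 named genes and -0.0092 over all probe sets.

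Camkk1 was the 1 gene of the 27 listed for calmodulin, its kinases and its phosphatase that the table named. Its targets Camk1 and Camk4 and its relative Camkk2 were on that list and were not analysed here. The table named none of 39 genes for calcium entry, stores and pumps, none of 15 for nucleotide breakdown and release, and none of 18 for NFAT and AMPK signalling. Their absence from a selected table leaves their levels unknown.

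Markers of blood cells in which P2rx1 is well known were counted beside it. As a background, 0.706% of all probe sets were in the table and 0.433% of them were called higher. This background counts probe sets and not genes. The table named none of 16 markers of megakaryocytes and platelets and none of 7 erythroid ones. Of 22 markers of neutrophils, macrophages and mast cells it named Lyz1 and Lyz2, and both rose. Lyz2 lay between 8.02 and 8.25 in untreated and between 9.26 and 9.60 in tamoxifen arrays, and Lyz1 between 7.23 and 7.26 and between 7.88 and 7.90 (log2 expression). Of 11 markers of T and NK cells, Tcf7, a factor of T cell development, rose (log2 change 0.85, limma adjusted p = 0.0060), and the kinase Zap70 had a log2 change of 0.63 that did not pass (limma adjusted p = 0.078). The other markers were not analysed here, and the part of other cell types in the rise of P2rx1 and Camkk1 was not tested.

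**Figure D5:**
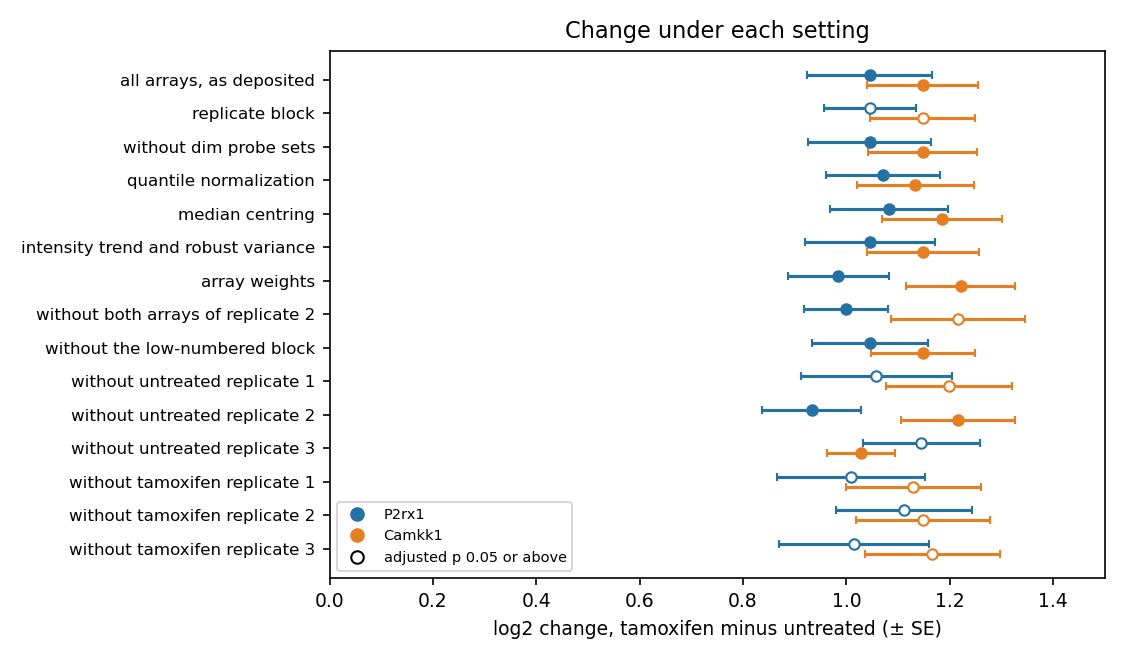
Log2 change of P2rx1 and Camkk1 (tamoxifen minus untreated, points) with the limma standard error (bars) for all arrays as deposited and for each alternative; open points have an adjusted p of 0.05 or above. Every point lies between 0.93 and 1.22, and both genes are open when replicate number is a block and when untreated replicate 1 or any tamoxifen array is left out.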

How the data were processed

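Total RNA from 3 untreated and 3 tamoxifen-treated cultures was measured on one-colour arrays with biotin labelling, per the labels' protocols. The deposited matrix holds log2 expression values per probe set, used as deposited; differences of group means lie within 0.021 of the log2 of the authors' folds over all 251 rows of their table. The submitters' processing notes name Partek and no version. For background correction, normalization, array design and genome build nothing is given in the sources used here. The authors' deposited table lists for each of 251 probe sets a p-value and a linear fold with a sign, a score in which falls are negative. No source says which test gave the p-values.

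Arrays were grouped by title. Differences were fitted with limma 3.58.1 in R 4.3.3 (lmFit, eBayes, 2 groups, no covariate; prior degrees of freedom 2.49, residual 4) with Benjamini-Hochberg adjustment over 35557 probe sets at 0.05, after the procedure had been tested on simulated data. The simulated noise was independent for each probe set, without structure shared by many probe sets, which the first component showed for these arrays. The simulation therefore does not cover how the adjusted p-values behave under such structure. The p-values reflect only the spread between these arrays, whose number limits the precision. Standard errors of the changes are limma's, whose variances borrow from all probe sets. Those for the difference between the changes of the 2 genes are from an ordinary linear model. Names were updated through RefSeq (GRCm38.p6): 200 rows through their accession, 11 through a symbol, 11 through a synonym and 10 through a gene number; 8 kept the deposited name and 11 had none. The brightest probe set in the authors' table stood for its gene. Named genes were the 2 members, the 5 nearest profiles of each (any probe set; predicted, unnamed and immunoglobulin rows passed over), chromosomal neighbours, and listed genes found in the table. Members, lists and rules were chosen with earlier results of these data known. Plots were made in Python 3.11.15 (matplotlib 3.10.9). The alternatives were a replicate block, leaving out dim probe sets (mean below the lower quartile), array weights, quantile normalization, a robust variance with an intensity trend, median centring, leaving out arrays, and leaving out a block of 6667 low-numbered probe sets.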

Additional observations from a re-analysis of the deposited data

How the results depend on the processing

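In all 14 alternatives both genes stayed higher with tamoxifen, by 0.93 to 1.15 for P2rx1 and by 1.03 to 1.22 for Camkk1 (log2), and each passed the limma threshold in 8. With the replicate block neither passed, at unchanged log2 changes of 1.05 and 1.15 (limma adjusted p = 0.096 and 0.098). Arrays sharing a replicate number deviated from their group means in opposite ways, weakly in replicate 3 (correlations over probe sets of -0.23, -0.45 and -0.096). The numbers were therefore not taken to pair the arrays. The deviations of P2rx1 nevertheless had the same sign within each number. The block lowered the limma SE of P2rx1 from 0.12 to 0.089, with an unadjusted limma p of 9.2e-05 against 8.5e-05 without it. For Camkk1 the limma SE went from 0.11 to 0.10. Without both arrays of replicate 2, P2rx1 passed and Camkk1, at 1.22, did not (limma adjusted p = 0.051). With 1 array left out the ranges were 0.93 to 1.15 for P2rx1 and 1.03 to 1.22 for Camkk1, with 1 and 2 of 6 fits past the threshold. The difference between the 2 changes then ranged from -0.28 to 0.12 and the distance between the profiles from 0.13 to 0.27. The distance without both arrays of replicate 2 was an alternative chosen after seeing the data. The mean of several probe sets could not be computed, since the authors' table names 1 for each gene. Probe sets outside that table could not be named.

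Counts of called probe sets moved more, and the cause was not tested. All arrays gave 154 higher and 162 lower calls; the replicate block gave 6 and 16, the bright probe sets alone 270 and 232, quantile normalization 212 and 309, and median centring 130 and 104. The intensity trend gave 410 and 311, weighting the arrays 814 and 376, dropping both arrays of replicate 2 247 and 85, and dropping the low-numbered block 332 and 308. The fits with 1 array left out gave 9 to 278 higher and 28 to 136 lower calls. No signal over background was at hand, so the limit that dimness sets for P2rx1 is unknown.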

Other observations

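Over the whole array, 6 pairs of consecutively numbered probe sets were both called higher with tamoxifen (limma, adjusted p under 0.05), of 35556 pairs. P2rx1 with Camkk1 and P2rx1 with the unnamed probe set just below it were 2 of these. The others were Lyz2 with Lyz1, Adssl1 and Rilpl1 each with an unnamed probe set, and 1 pair without names. There was 1 run of 3 consecutive probe sets called higher, the one that ends with P2rx1 and Camkk1. Of all probe sets, 0.433% were called higher. These counts were made after the values had been seen and carry no test.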
